A study of Mus musculus with 7 samples.

Results

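The genes described here are 10 imprinted genes of the perinatal mouse, read in islets of 7-day-old animals: H19, Meg3, Rian, Mirg, Dlk1, Peg3, Plagl1, Grb10, Nnat and Zim1. They were taken by symbol from the 49315 mouse genes of each count file, each symbol matched 1 gene identifier, and all 10 held enough counts to be tested. Pancreatic islets were compared between Nrf2lox/lox mice, the controls, and βNrf2KO mice, in which Nrf2 is deleted in β-cells. Nrf2 activates genes that protect cells from oxidants, and the study asked how it stimulates the growth of neonatal β-cells. Each library was made from total RNA pooled from 5 animals, with 3 control pools (numbers 1, 2 and 4) and 4 βNrf2KO pools (numbers 1, 2, 3 and 4). Which promoter drives Cre in the βNrf2KO mice is not given in the sources used here. All p-values refer to the spread among pools and say nothing of that among single animals.

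An imprinted gene is transcribed mainly from the copy inherited from 1 parent, under the control of methylation set in the egg or sperm. Many imprinted genes control fetal and early postnatal growth, and their transcripts are abundant in endocrine tissue before weaning. H19, Meg3, Rian and Mirg are noncoding RNAs made from the maternal copy, and Zim1 and, outside neurons, Grb10 are coding genes made from that copy. Dlk1, Peg3, Plagl1 and Nnat are coding genes made from the paternal copy. Dlk1, Meg3, Rian and Mirg share 1 imprinted domain on chromosome 12, H19 lies beside the growth factor gene Igf2 on chromosome 7, and Peg3 and Zim1 are neighbours near the other end of chromosome 7. Gene counts do not tell the parental copies apart, so imprinting itself was not measured.

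The pools held 18187382 to 25373105 counts, and a count of 0 in a pool allows up to 3 counts, for counting error alone. Levels are CPM (counts scaled to a library of fixed size) with edgeR's TMM factors, and on this scale 3 counts are 0.0997 to 0.198 CPM. Nfe2l2, which encodes Nrf2, stood at 43.2 to 86.2 CPM in control and 57.8 to 67.4 CPM in βNrf2KO pools, with a log2 fold change, βNrf2KO minus control, of 0.08 ± 0.23 (SE; edgeR, adjusted p = 0.911). This value does not check the labels, because it sums all exons of Nfe2l2, deleted or not, over every islet cell type. Reads of the Cre recombinase were found in all 4 βNrf2KO pools and in 0 of 3 control pools. Markers of β-cells were abundant, with 10 genes summing to 16934 to 47856 CPM in control and 33757 to 46174 CPM in βNrf2KO pools. The 8 acinar markers, from the exocrine tissue around islets, summed to 45.4 to 376 CPM, and 1 of them was at 0 in all pools. Transcripts of the mitochondrial genome made up 43.0%, 51.8% and 14.6% of control libraries 1, 2 and 4. They made up 27.7%, 22.4%, 20.6% and 10.02% of βNrf2KO libraries 1, 2, 3 and 4. In bulk islets, fewer cells of a type and less RNA per cell cannot be told apart.

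Meg3, Rian and Mirg are precursors of small RNAs, and H19 holds miR-675 in its first exon, so the small RNAs are shown here because their rows are read below with those of their hosts. Mature sequences are from RefSeq (GRCm38.p6), 1 arm for each of 8 miRNA genes, 5′ to 3′ with the seed (bases 2 to 8) in capitals. The 16 mature arms of these 8 genes had 16 different seeds. The first is from H19, the next 2 are antisense to Rtl1, and the others lie in or near Rian and Mirg.
miR-675-5p: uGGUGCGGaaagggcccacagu
miR-127-3p: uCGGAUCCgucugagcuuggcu
miR-136-5p: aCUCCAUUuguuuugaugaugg
miR-370-3p: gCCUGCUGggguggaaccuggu
miR-411-5p: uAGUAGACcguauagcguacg
miR-410-3p: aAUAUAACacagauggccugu
miR-376a-3p: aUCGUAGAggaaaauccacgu
miR-541-5p: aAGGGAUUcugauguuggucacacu

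Libraries of long total RNA are not made to capture mature miRNAs, and counts on a miRNA gene are read here as those of the longer transcript around it. The rows of Mir675, Mir127, Mir136, Mir410 and Mir376a were at 0 in all 7 pools. Mir370 held 0 to 15 counts, Mir411 10 to 40 and Mir541 0 to 5. Which of these rows held counts went with their place: in the domain from Dlk1 to Dio3, 28 of 28 miRNA and snoRNA genes that lie wholly inside an exon of another gene were at 0 in all pools. Of 51 that share no exon base with another gene, 50 had a count. Of the 28, 12 lie only in exons of the other strand, and all 12 were at 0. A 0 on a small RNA gene inside another gene's exon is therefore no measure of its precursor.

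Compared per length of exon, Peg3 was the highest of the 10 genes and Dlk1 the lowest. Mean levels over the 7 pools, in CPM per kilobase, were 177 ± 20.1 (SD, n = 7) for Peg3, 158 ± 28.4 for Nnat, 133 ± 46.1 for Meg3 and 81.7 ± 41.8 for H19. Rian followed at 45.2 ± 4.95, Plagl1 at 39.8 ± 11.8, Grb10 at 23.3 ± 3.19, Mirg at 19.1 ± 6.04, Zim1 at 16.6 ± 2.86 and Dlk1 at 8.08 ± 2.54. Among all tested genes ranked the same way, Peg3, Nnat, Meg3 and H19 stood at percentiles 99.7, 99.6, 99.6 and 99.2, and Dlk1 at 77.9. Neighbours in this order overlapped over the 7 pools, apart from Zim1 and Dlk1. Peg3 exceeded Nnat in 6 of 7 pools and Meg3 exceeded H19 in 7 of 7, but Nnat exceeded Meg3 in 4 of 7 and Rian exceeded Plagl1 in 4 of 7. The lengths are unions of all annotated exons, which lowers the value of genes with long or rarely used exons.

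**Figure D1:**
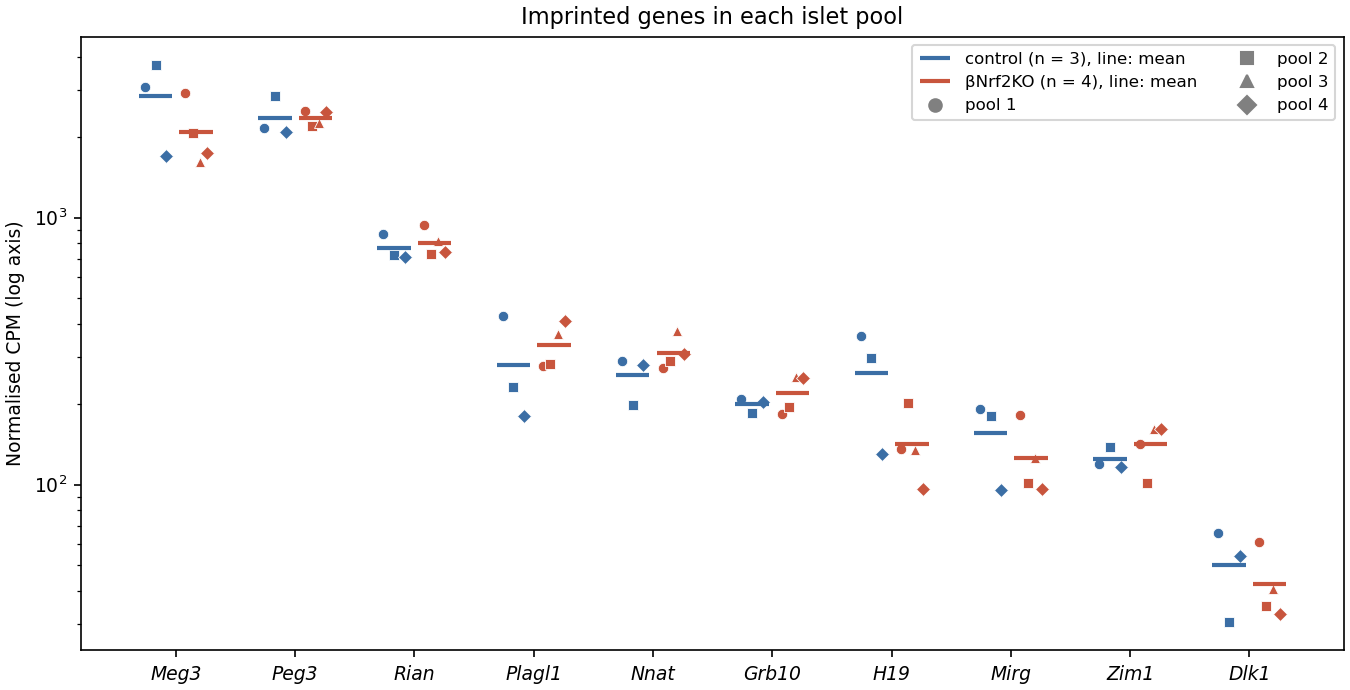
Level of the 10 imprinted genes in each pool, in normalised CPM on a log axis, for 3 control and 4 βNrf2KO pools; each point is 1 pool, its shape gives the pool number, and lines are group means. The groups overlap for every gene, and H19 spans 96.3 to 360 CPM while Peg3 spans 2087 to 2853.

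No imprinted gene passed the threshold between βNrf2KO and control islets. By edgeR's quasi-likelihood test with Benjamini-Hochberg adjustment over 19893 genes, 0 of the 10 had an adjusted p under 0.05, against 0% of all tested genes, and the smallest was 0.571, for H19, with a range of 0.160 to 0.9997 for that gene over the alternatives. At unadjusted p under 0.05 there was 1 of 10, H19, against 8.46% of all tested genes (1683). DESeq2 called 1 gene and limma-voom 0, and neither called 1 of the 10. With the pool number as a block 14 genes passed (0.0704%), and 0 of the 10 were among them. The log2 fold change, βNrf2KO minus control, was positive for 5 of 10, against 49.4% of all tested genes, with a median of 0.03 beside -0.01 over all tested genes. By role, 1 of the 4 noncoding RNAs and 4 of the 6 coding genes had a positive value. The CPM of the groups overlapped for all 10, where 7% of all tested genes had groups that did not overlap.

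**Figure D2:**
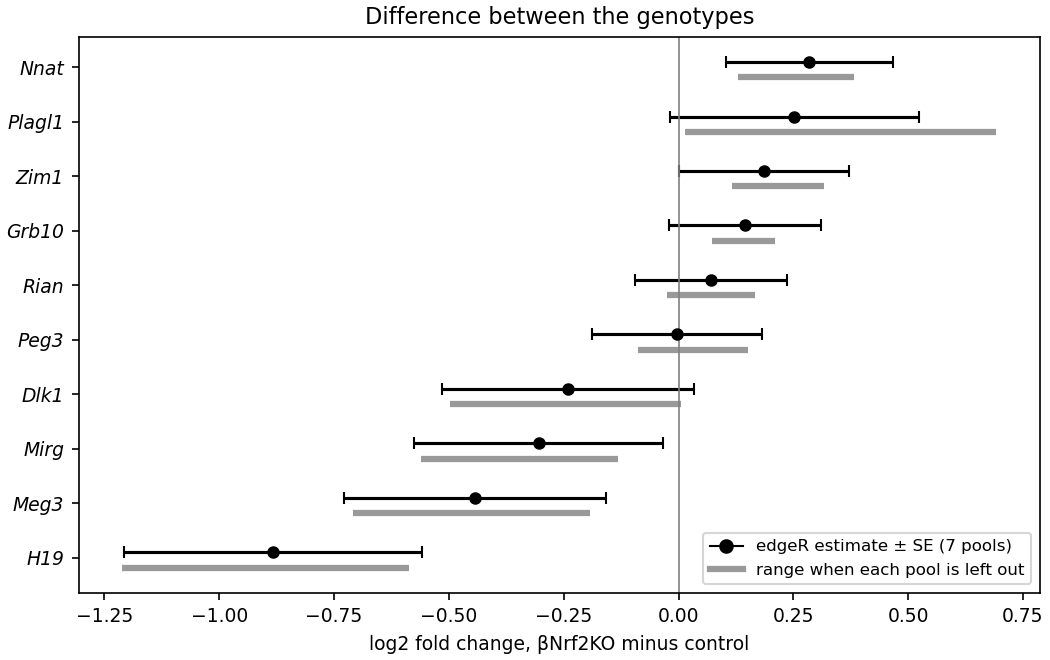
Log2 fold change (βNrf2KO minus control) of each imprinted gene with its standard error from edgeR over 7 pools, and below it in grey the range of estimates when each pool is left out. The estimates run from -0.88 for H19 to 0.28 for Nnat, and the grey ranges of Rian, Peg3 and Dlk1 reach both sides of 0.

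H19 (ENSMUSG00000000031, chromosome 7, 142575529 to 142578143, minus strand, GRCm38) is a maternally expressed RNA that restrains growth. It was read at 360, 298 and 130 CPM in control pools 1, 2 and 4, and at 136, 202, 134 and 96.3 CPM in βNrf2KO pools 1, 2, 3 and 4. Control pools 1 and 2 were above every βNrf2KO pool, and control pool 4 lay among them. H19 was lower in the βNrf2KO pool of each of the 3 shared pool numbers, and with the number as a block the log2 fold change was -0.80 ± 0.20 (edgeR, adjusted p = 0.223). The group means of H19 were 262 ± 119 CPM (SD, n = 3) and 142 ± 43.9 CPM (SD, n = 4), and the log2 fold change was -0.88 ± 0.32 (SE; edgeR quasi-likelihood test, adjusted p = 0.571). Leaving out each pool gave -1.21 (without control pool 4) to -0.59 (without control pool 1). H19 varied most of the 10, with a highest pool 3.73 times its lowest.

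Igf2, the paternally expressed growth factor that shares enhancers with H19, was read at 724, 678 and 294 CPM in control pools 1, 2 and 4. In βNrf2KO pools 1, 2, 3 and 4 it was 320, 437, 396 and 305 CPM. The same control pools were high, and control pool 4 was below every other pool. The log2 fold change of Igf2 was -0.63 ± 0.27 (edgeR, adjusted p = 0.571), and it was -0.95 without control pool 4 and -0.41 without control pool 1. Across the 7 pools H19 and Igf2 had a Pearson r of 0.957 (exact permutation p = 0.00179, adjusted over 6 pairs 0.0107) and a Spearman rho of 0.929 (exact permutation p = 0.00675, adjusted 0.0405). Without control pools 1 and 2, which were farthest from the median of Igf2, r was 0.774 over 5 pools, and with each group's mean removed it was 0.943 over 7. These were the 2 highest pools for both genes. Among 12490 named genes whose mean log2 CPM reached 1, 155 had r of at least 0.9 with H19, so a high r with H19 was not particular to Igf2. H19 counts per Igf2 count were 0.497, 0.439 and 0.442 for control pools 1, 2 and 4, against 0.424, 0.463, 0.340 and 0.316 in βNrf2KO pools 1, 2, 3 and 4. These ratios overlapped between the groups (exact permutation p = 0.229).

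Markers of mesenchyme, examined after the values of H19 were seen, moved with both genes. The 8 markers, among them the collagen genes Col1a1 and Col3a1, summed to 1917, 1744 and 789 CPM for control pools 1, 2 and 4, and to 855, 1344, 785 and 862 CPM in βNrf2KO pools 1, 2, 3 and 4. All 8 were tested, 8 were lower in βNrf2KO and 0 passed, at a median of -0.78 on the log2 scale, and none was at 0 in all pools. H19 correlated with this sum at r = 0.950 over 7 pools (exact permutation p = 0.00595, adjusted over 11 genes 0.0327) and Igf2 at r = 0.937 (exact permutation p = 0.00556, adjusted 0.0327). Their rank correlations were 0.750 each (exact permutation p = 0.0663, adjusted 0.243). Without control pools 1 and 2, r was 0.767 and 0.680 over 5 pools. How many of all tested genes followed this sum is not given here. Meg3 had r = 0.752 with the same sum (exact permutation p = 0.0641, adjusted 0.235) and rho = 0.857 (exact permutation p = 0.0238, adjusted 0.243), and its r was 0.236 over 5 pools without control pools 1 and 2. As a percentage of the marker sum H19 was 18.8%, 17.1% and 16.4% for control pools 1, 2 and 4, against 15.9%, 15.04%, 17.1% and 11.2% for βNrf2KO pools 1, 2, 3 and 4. These percentages overlapped between the groups. Acinar markers were also lower, in 6 of 6 tested genes at a median of -1.002 on the log2 scale. They summed to 376, 136 and 51.8 CPM for control pools 1, 2 and 4, and to 94.9, 203, 61.4 and 45.4 CPM for βNrf2KO pools 1, 2, 3 and 4. Smooth muscle (5 of 5 genes), leukocyte (6 of 6) and neural (6 of 6) markers were lower as well, and 0 genes of these lists passed. Endothelial and ductal markers were not lower as a list, with 4 of 6 genes higher in each. Their medians were 0.14 and 0.36 on the log2 scale. The part of mesenchyme or of any of these cell types in the H19 difference was not tested.

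**Figure D3:**
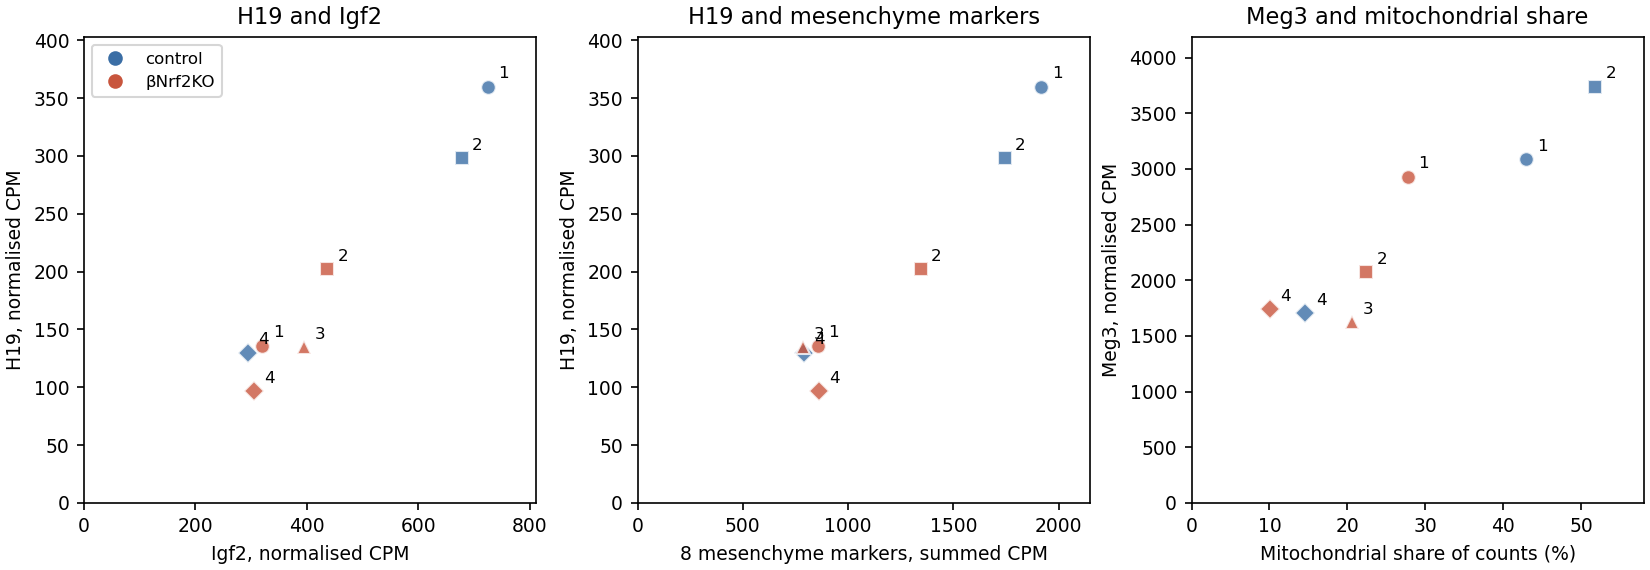
Each point is 1 pool, labelled with its number, control in blue and βNrf2KO in red: H19 against Igf2 (both normalised CPM), H19 against the summed CPM of 8 mesenchyme markers, and Meg3 against the share of counts in the mitochondrial genome (%). Control pools 1 and 2 stand at the upper right of each plot, while control pool 4 lies with the βNrf2KO pools.

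Meg3 (ENSMUSG00000021268, chromosome 12, 109541001 to 109571726, plus strand, GRCm38) is the RNA that opens the maternally expressed transcripts of its domain, and it acts as a growth suppressor in cultured cells. It was read at 3088, 3738 and 1704 CPM in control pools 1, 2 and 4, and at 2929, 2074, 1621 and 1741 CPM in βNrf2KO pools 1, 2, 3 and 4. The 3 high values were control pools 1 and 2 and βNrf2KO pool 1, so the groups overlapped. The group means of Meg3 were 2843 ± 1039 CPM (SD, n = 3) and 2091 ± 590 CPM (SD, n = 4), and the log2 fold change was -0.44 ± 0.28 (edgeR, adjusted p = 0.620). It was -0.71 without control pool 4 and -0.19 without control pool 2. Markers of α-cells ran the other way. These 5 genes summed to 4110, 4664 and 14121 CPM for control pools 1, 2 and 4, and to 5212, 7375, 18831 and 15496 CPM for βNrf2KO pools 1, 2, 3 and 4. The 3 pools highest in Meg3 were the 3 lowest in this sum, and its part in the Meg3 difference was not tested. Of the exon bases of Meg3, 6.79% are shared with Gm26906, a noncoding gene of the other strand.

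Mirg (ENSMUSG00000097391, chromosome 12, 109729764 to 109749460, GRCm38), the host of a miRNA cluster further along the domain, followed a similar order at a lower level. It was read at 191, 181 and 95.8 CPM in control pools 1, 2 and 4, and at 182, 101, 126 and 96.1 CPM in βNrf2KO pools 1, 2, 3 and 4. The log2 fold change of Mirg was -0.30 ± 0.27 (edgeR, adjusted p = 0.698), and it was -0.56 without control pool 4 and -0.13 without control pool 1. Rian (ENSMUSG00000097451, chromosome 12, 109603940 to 109661716, GRCm38), which holds a cluster of C/D box snoRNAs between Meg3 and Mirg, was even across the pools. It was read at 866, 723 and 714 CPM in control pools 1, 2 and 4, and at 939, 729, 814 and 743 CPM in βNrf2KO pools 1, 2, 3 and 4. Its highest pool was 1.32 times its lowest, the smallest such ratio of the 10, and its log2 fold change was 0.07 ± 0.16 (edgeR, adjusted p = 0.890).

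Although Meg3 and Rian are transcribed in the same direction from the same domain, their levels were not in a fixed ratio. Rian counts per Meg3 count were 0.280, 0.193 and 0.419 for control pools 1, 2 and 4, against 0.321, 0.351, 0.502 and 0.426 for βNrf2KO pools 1, 2, 3 and 4. Control pools 1 and 2 were the lowest and βNrf2KO pools 3 and 4 the highest, with control pool 4 among the βNrf2KO pools, and the log2 ratio differed by 0.48 between the groups (exact permutation p = 0.229, adjusted over 6 ratios 0.686). Mirg stayed closer to Meg3, at 0.0619, 0.0484 and 0.0562 Mirg counts per Meg3 count in control and 0.0621, 0.0489, 0.0775 and 0.0552 in βNrf2KO pools. Across 7 pools Meg3 and Mirg had r = 0.879 (exact permutation p = 0.0300, adjusted 0.0899) and rho = 0.679 (exact permutation p = 0.110, adjusted 0.219). For Meg3 and Rian r was 0.332 (exact permutation p = 0.458, adjusted 0.550) and rho 0.143 (exact permutation p = 0.783, adjusted 0.939). For Rian and Mirg r was 0.656 (exact permutation p = 0.0966, adjusted 0.193) and rho 0.714 (exact permutation p = 0.0881, adjusted 0.219). Without the 2 pools farthest from the median these r were 0.782, 0.739 and 0.0937 over 5 pools, so the value for Rian and Mirg rested on control pool 1 and βNrf2KO pool 1. With each group's mean removed they were 0.866, 0.507 and 0.805 over 7 pools, in the same order.

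The level of Meg3 moved with the mitochondrial share of the library, a relation also sought after the data were seen, with r = 0.917 over 7 pools (exact permutation p = 0.00179, adjusted over 11 genes 0.0196) and rho = 0.857 (exact permutation p = 0.0238, adjusted 0.0938). The same held for Mirg (r = 0.855, exact permutation p = 0.00794, adjusted 0.0313), H19 (r = 0.897, exact permutation p = 0.00853, adjusted 0.0313) and Igf2 (r = 0.899, exact permutation p = 0.0123, adjusted 0.0338). Rank correlations were 0.821 for Mirg, 0.929 for H19 and 0.821 for Igf2 (exact permutation p = 0.0341, 0.00675 and 0.0341), with adjusted p of 0.0938, 0.0742 and 0.0938. The other 7 genes had r from -0.685 (Nnat) to 0.471 (Peg3), with adjusted p of at least 0.193 by the exact permutation test. How many of all tested genes followed the share is not given here, so these values do not set imprinted genes apart. Among 12490 named genes whose mean log2 CPM reached 1, 523 had r of at least 0.9 with Meg3. Without control pools 1 and 2 the r of Meg3, Mirg, H19 and Igf2 were 0.758, 0.813, 0.635 and 0.456 over 5 pools, so that of Igf2 rested largely on those pools. With each group's mean removed they were 0.902, 0.860, 0.842 and 0.855. The mean share was 36.5% ± 19.4 (SD, n = 3) for control and 20.2% ± 7.43 (SD, n = 4) for βNrf2KO libraries (exact permutation p = 0.229), and its part in the differences of these genes was not tested. The share and the mesenchyme sum were themselves related, at r = 0.837 (exact permutation p = 0.0196) and rho = 0.643 (exact permutation p = 0.139), with r = 0.265 over 5 pools without control pools 1 and 2.

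The rest of the domain was read from all 104 genes that lie from the start of Dlk1 to the end of Dio3, of which 45 were tested. Of the 41 tested genes other than the 4 already named, 36 had a negative and 5 a positive log2 fold change, with a median of -0.47, where the median over all tested genes was -0.01. By edgeR 0 of the 41 passed (0% of all tested genes passed), and 8 had an unadjusted p under 0.05, all lower, against 5.23% of all tested genes that were lower at that p. These genes are read from shared precursors and cannot be counted as separate observations. From Dlk1 up to Rian all 11 tested genes were lower, with a median of -0.65. From Rian up to Mir379 there were 13 lower and 5 higher with a median of -0.22, and from Mir379 to the end of Mirg 15 lower and 1 higher with a median of -0.68.

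Among the most abundant of the other genes in the domain, Rtl1, a retrotransposon-derived coding gene, was read at 171, 274 and 90.3 CPM in control pools 1, 2 and 4. In βNrf2KO pools 1, 2, 3 and 4 it was 146, 111, 74.8 and 60.9 CPM. The log2 fold change of Rtl1 was -0.86 ± 0.38 (edgeR, adjusted p = 0.571), and it was -0.41 without control pool 2. Reads of Rtl1 and of the maternal transcript on the other strand cannot be told apart, because the use of strand in the counting is not given in the sources used here. Noncoding genes Gm37899, B830012L14Rik and Gm26945 differed by -0.27 ± 0.15, -0.24 ± 0.16 and 0.30 ± 0.31, and the snoRNA gene Gm23600 by -0.34 ± 0.25 (edgeR, adjusted p of 0.584, 0.630, 0.737 and 0.644). Dio3, the deiodinase at the far end of the domain, held 2 to 12 counts and was not tested.

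**Figure D4:**
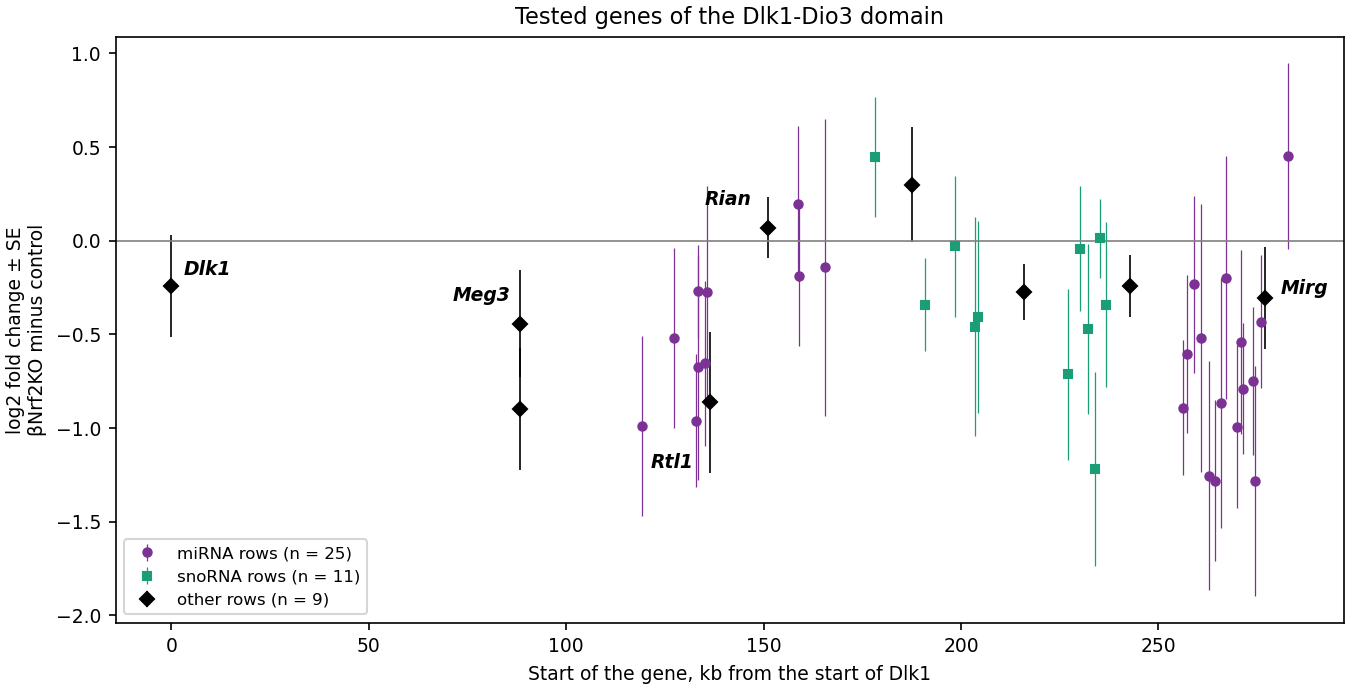
Log2 fold change (βNrf2KO minus control, points with SE over 7 pools) of the 45 tested genes of the domain against their distance from the start of Dlk1 in kilobases, for miRNA genes, snoRNA genes and others. Points left of Rian and those around Mirg lie mostly below 0, with medians of -0.65 and -0.68, and points from Rian onward lie nearer to 0, with a median of -0.22.

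The small RNA genes of the domain were summed to lessen the effect of their low counts. The 67 miRNA genes summed to 58.9, 72.1 and 60.6 CPM in control pools 1, 2 and 4, and to 67.5, 46.0, 29.2 and 36.9 CPM in βNrf2KO pools 1, 2, 3 and 4. Only βNrf2KO pool 1 reached the control pools. The 23 snoRNA genes summed to 45.5, 37.4 and 46.1 CPM in control and 57.3, 36.2, 36.5 and 31.6 CPM in βNrf2KO pools, with βNrf2KO pool 1 the highest. Of the 25 miRNA genes tested 23 were lower, at a median of -0.60 on the log2 scale, and of 11 snoRNA genes 9 were lower, with a median of -0.34. Single miRNA genes held at most 327 counts in a pool. Groups did not overlap for 5 of the 41 genes (12.2%, against 7% of all tested genes). These were chosen after their values were seen: Mir337 (24 to 91 counts), Mir666 (14 to 53), Mir376c (11 to 28), the snoRNA gene Gm25854 (5 to 28) and Gm37899 (1276 to 2861).

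Dlk1 (ENSMUSG00000040856, chromosome 12, 109452823 to 109463336, GRCm38) encodes a membrane protein of the Notch ligand type that marks immature endocrine and fat precursor cells. Dlk1 stood at 65.9, 30.5 and 53.8 CPM in control pools 1, 2 and 4, and at 60.9, 35.2, 40.8 and 32.9 CPM in βNrf2KO pools 1, 2, 3 and 4. Both pools numbered 1 were the highest of their group. Its log2 fold change was -0.24 ± 0.27 (edgeR, adjusted p = 0.764), and it was 0.00438 without control pool 1. Control pool 2 had the lowest Dlk1 and the highest Meg3, with 0.00816 Dlk1 counts per Meg3 count against 0.0213 and 0.0316 in control pools 1 and 4. In βNrf2KO pools this ratio was 0.0208, 0.0170, 0.0252 and 0.0189 (exact permutation p = 0.800 for the group difference). Over 7 pools Meg3 and Dlk1 had r = 0.143 (exact permutation p = 0.751, adjusted 0.751) and rho = -0.04 (exact permutation p = 0.963, adjusted 0.963), and r was 0.536 over 5 pools without control pools 1 and 2.

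**Figure D5:**
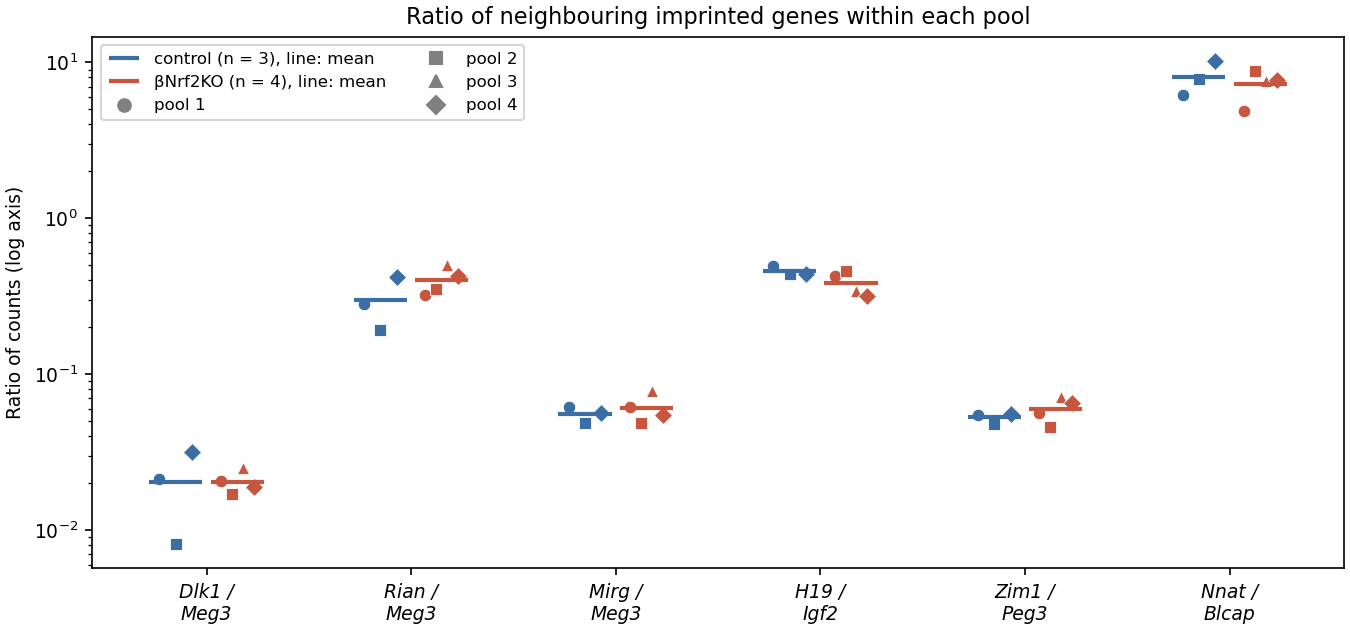
Ratio of the counts of neighbouring imprinted genes within each pool, on a log axis, for 3 control and 4 βNrf2KO pools; points are pools, shapes give the pool number and lines are group means. The groups overlap for all 6 ratios, and control pool 2 stands below every other pool for Dlk1 to Meg3 and for Rian to Meg3.

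Peg3 (ENSMUSG00000002265, chromosome 7, 6703892 to 6730431, minus strand, GRCm38) encodes a large zinc finger protein made from the paternal copy. It was read at 2164, 2853 and 2087 CPM in control pools 1, 2 and 4, and at 2515, 2196, 2265 and 2475 CPM in βNrf2KO pools 1, 2, 3 and 4. The βNrf2KO pools lay inside the control range. The log2 fold change was -0.00316 ± 0.18 (edgeR, adjusted p = 0.996), and its sign turned when single pools were left out, with estimates between -0.0884 and 0.15. Zim1 (ENSMUSG00000002266, chromosome 7, 6671269 to 6696450, GRCm38), the maternally expressed zinc finger gene beside it, was read at 119, 138 and 117 CPM in control and 142, 101, 162 and 162 CPM in βNrf2KO pools, and differed by 0.19 ± 0.18 (edgeR, adjusted p = 0.729). There were 0.0552, 0.0483 and 0.0558 Zim1 counts per Peg3 count in control and 0.0563, 0.0462, 0.0715 and 0.0653 in βNrf2KO pools (exact permutation p = 0.457). Over 7 pools Peg3 and Zim1 had r = 0.496 (exact permutation p = 0.252, adjusted 0.379) and rho = 0.536 (exact permutation p = 0.236, adjusted 0.354), and r was 0.735 over 5 pools without control pool 2 and βNrf2KO pool 1.

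Plagl1 (ENSMUSG00000019817, chromosome 10, 13060504 to 13131694, GRCm38) encodes a zinc finger factor whose overexpression causes transient neonatal diabetes in humans. Plagl1 stood at 428, 233 and 181 CPM in control pools 1, 2 and 4, and at 278, 282, 366 and 410 CPM in βNrf2KO pools 1, 2, 3 and 4. Control pool 1 was the highest of the 7 and the other 2 control pools the lowest. Its log2 fold change was 0.25 ± 0.27 (edgeR, adjusted p = 0.749). It depended on control pool 1, without which it was 0.69, and was 0.01 without control pool 4.

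Nnat (ENSMUSG00000067786, chromosome 2, 157560078 to 157562522, GRCm38) encodes neuronatin, a small membrane protein of the endoplasmic reticulum that aids insulin processing in β-cells. Nnat stood at 289, 199 and 280 CPM in control pools 1, 2 and 4, and at 274, 291, 375 and 309 CPM in βNrf2KO pools 1, 2, 3 and 4. Control pool 2, which also had the lowest sum of β-cell markers, was the lowest. Among those markers Ins2, Iapp, G6pc2, Pdx1, Ucn3 and Slc30a8 were lowest in that pool, but Ins1, Slc2a2, Mafa and Nkx6-1 were not. The part of β-cells in the Nnat difference was not tested. For Nnat the log2 fold change was 0.28 ± 0.18 (edgeR, adjusted p = 0.619), and it was 0.13 when control pool 2 was left out and 0.38 when control pool 1 was. Blcap, the gene in whose intron Nnat lies, differed by 0.43 ± 0.25 (edgeR, adjusted p = 0.592), and the 2 genes share no exon bases. There were 6.18, 7.88 and 10.2 Nnat counts per Blcap count in control and 4.90, 8.84, 7.62 and 7.66 in βNrf2KO pools (exact permutation p = 0.629).

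Grb10 (ENSMUSG00000020176, chromosome 11, 11930508 to 12038683, minus strand, GRCm38) encodes an adaptor that binds the insulin and IGF1 receptors and dampens their signal. Grb10 stood at 209, 186 and 204 CPM in control pools 1, 2 and 4, and at 183, 195, 254 and 250 CPM in βNrf2KO pools 1, 2, 3 and 4. βNrf2KO pools 3 and 4 were the highest, and pool 1 was the lowest. Grb10 had a log2 fold change of 0.15 ± 0.17 (edgeR, adjusted p = 0.765).

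Other imprinted genes were read from a list of 45, of which 44 were found and 37 tested. By edgeR 0 passed, and 15 had a positive and 22 a negative log2 fold change, with a median of -0.06. At unadjusted p under 0.05 there were 6 of 37, all lower, against 5.23% of all tested genes. The 5 with the smallest p besides those always named were Mcts2, a retrogene inside H13 (-1.26 ± 0.39), Dcn, the matrix proteoglycan decorin (-1.55 ± 0.54), the potassium channel Kcnq1 (-0.71 ± 0.25), the splicing factor gene Zrsr1 (-0.55 ± 0.23) and Ppp1r9a, an actin-binding protein (-0.40 ± 0.19), each with an edgeR adjusted p of 0.571. Dcn is also a gene of fibroblasts, and was read at 102, 48.6 and 17.6 CPM in control and 28.6, 22.6, 11.3 and 14.04 CPM in βNrf2KO pools. Without control pool 1 its log2 fold change was -0.79. Leaving out control pool 2 brought Mcts2 to -0.71, Kcnq1 to -0.44, Zrsr1 to -0.28 and Ppp1r9a to -0.14.

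Genes of that list with known roles in growth included Cdkn1c and Igf2r. Cdkn1c, a cell cycle inhibitor made from the maternal copy, was read at 36.2, 31.8 and 14.1 CPM in control pools 1, 2 and 4, and at 12.9, 23.9, 16.97 and 19.3 CPM in βNrf2KO pools 1, 2, 3 and 4. Control pool 4 again lay with the βNrf2KO pools, and Cdkn1c differed by -0.58 ± 0.30 (edgeR, adjusted p = 0.572), or by -0.90 without control pool 4 and -0.32 without control pool 1. Igf2r, the receptor that clears IGF2, differed by -0.04 ± 0.16, Mest, a paternally expressed hydrolase-like gene, by -0.17 ± 0.23, and Gnas, which encodes the stimulatory G protein subunit, by -0.09 ± 0.14 (edgeR, adjusted p of 0.943, 0.799 and 0.841). The groups did not overlap for 1 of the 37 (2.70%, against 7% of all tested genes), Ube3a, a ubiquitin ligase gene chosen after its values were seen. Ube3a was read at 74.8, 42.2 and 74.1 CPM in control and 80.0, 76.1, 92.2 and 87.2 CPM in βNrf2KO pools, a log2 fold change of 0.40 ± 0.20 (edgeR, adjusted p = 0.572) that was 0.17 without control pool 2.

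The genes most like H19, Meg3 and Dlk1 over the 7 pools were sought among the 12490 named genes whose mean log2 CPM reached 1. For H19 these were Frmd6, a membrane scaffold gene (r = 0.990), and Cavin1, a coat protein of caveolae (r = 0.984), and 155 genes had r of at least 0.9. For Meg3 they were the small Cajal body RNA Scarna13 (r = 0.994) and the nuclear noncoding RNA Malat1 (r = 0.992), and 523 genes reached 0.9. For Dlk1 they were the tRNA synthetase gene Hars (r = 0.978) and the lipid-binding protein gene Osbpl3 (r = 0.976), and 21 genes reached 0.9. These values are a description over 7 pools, and they are high partly because they are the highest of many.

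Promoter sequences are shown for Meg3 and Peg3, the imprinted genes with the most CPM, because each held the cAMP response element TGACGTCA. The RefSeq table (GRCm38.p6) gave 11 windows for 9 of the genes, each with 250 bases before and 50 after an annotated start. The core of the antioxidant response element, the site that Nrf2 binds, was searched as TGACNNNGC on both strands and was in none of the 11, where 12.4% of 32851 such windows held it. The palindrome TGACGTCA was in 1.79% of all windows, and it began 57 bases before the start of Meg3 (chr12:109540746-109541045, plus strand) and 178 bases before that of Peg3 (chr7:6730370-6730669, minus strand). A match describes these letters alone, and the absence of one says only that they are not in this window. The windows are printed 5′ to 3′ on the strand of the gene, with the match in capitals.
Meg3: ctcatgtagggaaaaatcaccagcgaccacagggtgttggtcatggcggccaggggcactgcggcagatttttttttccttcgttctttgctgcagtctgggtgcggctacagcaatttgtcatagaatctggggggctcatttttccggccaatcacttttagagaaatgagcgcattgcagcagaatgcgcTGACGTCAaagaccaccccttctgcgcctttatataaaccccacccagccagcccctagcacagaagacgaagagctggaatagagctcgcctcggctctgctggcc
Peg3: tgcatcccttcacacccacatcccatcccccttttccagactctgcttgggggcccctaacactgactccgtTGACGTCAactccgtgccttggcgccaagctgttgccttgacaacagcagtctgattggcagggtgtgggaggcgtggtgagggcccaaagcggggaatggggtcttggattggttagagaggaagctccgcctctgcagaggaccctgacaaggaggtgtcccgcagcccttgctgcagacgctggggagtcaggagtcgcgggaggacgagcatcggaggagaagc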

How the data were processed

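RNA of neonatal islet pools was measured by sequencing of ribosome-depleted libraries. Raw counts for each gene were deposited. Reads were aligned with STAR 2.5.2b and counted with featureCounts (Subread 1.5.2), after bcl2fastq 2.20 and Trimmomatic 0.36, per the submitters' processing notes. Whether counting used strand, how it treated reads on shared exons and which annotation release it used are not given in the sources used here. A newer build is named there, but of 49056 gene identifiers also in GENCODE M21 (GRCm38), 91.4% had identical coordinates, so positions are given as GRCm38. Library sizes exclude Cre. A combined table of the series was not used here.

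The test was edgeR 4.0.16 in R 4.3.3: TMM, filterByExpr, robust quasi-likelihood fit, two-sided, 19893 genes. Errors beside fold changes are SE. Ratios within a pool (0.5 count added for the log2 ratio, adjusted over 6) were tested by exact permutation over 35 splits (two-sided, doubling the smaller tail), which cannot go below p = 0.0571, and correlations by exact permutation of the 5040 pairings. The correlations are a description, since pools of both groups enter, and their p-values treat these pools as exchangeable. The tests were tried on simulated data. A difference that missed the threshold is not shown to be absent. Alternatives were RLE, leaving out the mitochondrial genome, no filter, at least 1 CPM in 3 pools, DESeq2 1.42.0, limma-voom (limma 3.58.1), the pool number as a block, each pool left out and a threshold of 0.1.

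By their deviations from the group means over genes, same-numbered pools had r = 0.347, 0.210 and 0.293 for numbers 1, 2 and 4. Other pairs had -0.318 to 0.214, the highest being control pool 4 with βNrf2KO pool 3, so number 2 did not stand apart. All tests are unpaired, with the number as a block only as an alternative, and the labels do not say what the numbers stand for.

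The members and lists were chosen with earlier results of these data known. Besides the 10 members, the genes named were Igf2, Cdkn1c, Igf2r, Gnas, Mest, Rtl1, Dio3 and Blcap, the 5 other imprinted genes with the smallest p, the 5 other domain genes with the highest CPM, and the 2 genes most correlated with each of H19, Meg3 and Dlk1. Correlations with the mitochondrial share and the mesenchyme markers, and the α-cell sums set beside Meg3, were added after seeing the data.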

Additional observations from a re-analysis of the deposited data

Results flagged for a closer look

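In the 4 βNrf2KO pools, Igf2r was the 1 measure of 32 examined by Dixon's test with a pool far from the others: βNrf2KO pool 1 was at 207 CPM against 172, 172 and 167 CPM in pools 2, 3 and 4, and its gap on the log2 scale was 0.849 of the group's range, above the critical value for 4 samples. Chance alone flags about 1 in 20 such groups.

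The Cre recombinase entry, outside the gene tests, held 24, 23, 46 and 73 counts in βNrf2KO pools 1, 2, 3 and 4, in total 166, and 0 in each of the 3 control pools.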

How the results depend on the processing

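The count of imprinted genes past the threshold was 0 under every alternative, as were those of the other imprinted genes and of the Dlk1-Dio3 domain. The count over all genes was 0 and became 1 with DESeq2, 14 with the pool number as a block, and 0 to 1 when each pool was left out (1 without control pool 4). The block changed the call of none of the 10 genes, the other imprinted genes or the genes of the Dlk1-Dio3 domain. It turned the log2 ratio of Mirg to Meg3 to -0.00266 and the value of Peg3 to 0.0290. Peg3 was also 0.00508 with DESeq2, 0.0145 with limma-voom and 0.00222 without a filter. When each pool was left out, signs turned over ranges of -0.0241 to 0.17 for Rian, -0.50 to 0.00438 for Dlk1, -0.0884 to 0.15 for Peg3, -0.13 to 0.0665 for Igf2r, -0.37 to 0.0105 for Mest and -0.0428 to 0.59 for Gm26945. The log2 ratios ranged from -0.36 to 0.62 for Dlk1 to Meg3, from -0.00266 to 0.22 for Mirg to Meg3 and from -0.34 to 0.0243 for Nnat to Blcap. The number of positive values among the 10 ranged from 4 to 6. With group means removed, the correlation was 0.866 for Meg3 and Mirg, 0.805 for Rian and Mirg and 0.507 for Meg3 and Rian. No p-value is given with these, because values from which group means were taken cannot be freely exchanged between pools. The correlation with the mitochondrial share, read in the same way, turned to -0.11 for Dlk1, 0.26 for Plagl1 and 0.0582 for Zim1. That with the mesenchyme sum turned to 0.10 for Rian. The cause of these changes was not tested. With 3 and 4 pools, the unadjusted count over all genes at p under 0.05, 1683 in all pools, was 475 when control pool 2 and 3446 when control pool 4 was left out.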
